A study of Mus musculus with 8 samples.

Results

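In wild-type mouse testis, 1586 autosomal promoter regions with H3K27ac in pachytene spermatocytes (PS) overlapped no reproducible H3K27ac region of round spermatids (RS). They were 13.7% of the 11590 autosomal promoter regions of PS (95% Wilson interval 13.1 to 14.3%, counting error only), and the remaining 10004 promoter regions were kept. The 1586 regions belonged to 1483 genes, 198 of which had a kept promoter region too. The members were chosen by their peaks: intervals of the 2 PS peak lists on chromosomes 1 to 19 were joined where they shared 1 bp or more, a joined region needed an interval from both PS samples and a promoter label at its strongest interval, and it was lost when no RS region, joined in the same way from both RS samples, shared 1 bp or more with it. Both PS lists together gave 26333 autosomal regions, and both RS lists gave 26489. Because presence and absence of peaks selected the members, every H3K27ac value below is a description and carries no test.

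H3K27ac is acetylation of lysine 27 on histone H3, a mark of active promoters and enhancers that is written by the p300 and CBP acetyltransferases and removed by histone deacetylases. Pachytene spermatocytes are cells in meiotic prophase whose homologous chromosomes are paired, and round spermatids are the haploid cells that follow the meiotic divisions. Between both stages germ cells change much of their transcription, with genes for the acrosome, the flagellum and later the protamines becoming active.

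The series holds 8 samples from adult C57BL/6 testis. H3K27ac was measured by ChIPmentation (chromatin immunoprecipitation with tagmentation of the bound DNA) in wild-type PS and wild-type RS, with 2 samples each. RNA was measured in PS and RS of mice lacking both Rnf8, a ubiquitin ligase of the DNA damage response, and Scml2, a germline Polycomb protein (Rnf8- and Scml2-dKO), with 2 samples each, from amplified cDNA of cells purified by small-scale gravity sedimentation, each purification starting from the testes of 1 dKO mouse. Thus mark and RNA come from different genotypes, and an effect of genotype on the relation between them cannot be told apart from an effect of the mark. The study describes the samples of both assays as biological replicates, while the labels do not say which PS and RS samples shared a mouse, and p-values measure the spread between these samples. The deleted genes still had reads in the dKO libraries: Rnf8 stood at 4.02 and 4.88 RPKM (read count scaled to transcript length and library depth) in PS and at 2.15 and 2.09 in RS, and Scml2 at 0.724 and 1.71 in PS and 0.649 and 1.72 in RS. Without wild-type RNA here, these levels do not check the genotype.

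The 4 peak lists were not alike. PS replicates listed 38519 and 46177 autosomal peaks, RS replicate 1 listed 72928 and RS replicate 2 listed 44726. Fold enrichment is the pileup at a summit plus 1, over the sample's own background plus 1. The lowest fold enrichment that was listed was 3.29 in both PS samples, 2.85 in RS replicate 1 and 3.48 in RS replicate 2. RNA libraries held 9655405 to 12289694 reads on genes. In the dKO RNA, all 18 round spermatid markers rose from PS to RS and 12 of 18 pachytene markers fell. Summed over the 18 pachytene markers, RPKM was 6111 and 6146 in PS and 4067 and 4047 in RS, and summed over the 18 spermatid markers it was 898 and 1341 in PS and 17893 and 18358 in RS. Markers of Leydig and peritubular cells (19 genes) summed to 808 and 581 RPKM in PS and to 134 and 89.1 in RS, those of Sertoli cells (21 genes) to 132 and 67.7 in PS and 107 and 74.5 in RS, and those of blood and endothelium (18 genes) to 9.67 and 8.63 in PS and 74.3 and 66.9 in RS, with the 5 globin genes at 0 in every library.

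Promoter sequences of the strongest lost regions and of lost regions whose genes changed most in RNA are shown so that their base composition can be compared. Each runs from 250 bases before to 50 bases after a RefSeq start site (GRCm38.p6, the coordinates of mm10) and lies by at least 150 bases inside its H3K27ac region, and capitals mark CG dinucleotides. The strongest regions with an entry in the RefSeq promoter table came first.
Lef1, chr3:131112541-131112840 (+ strand): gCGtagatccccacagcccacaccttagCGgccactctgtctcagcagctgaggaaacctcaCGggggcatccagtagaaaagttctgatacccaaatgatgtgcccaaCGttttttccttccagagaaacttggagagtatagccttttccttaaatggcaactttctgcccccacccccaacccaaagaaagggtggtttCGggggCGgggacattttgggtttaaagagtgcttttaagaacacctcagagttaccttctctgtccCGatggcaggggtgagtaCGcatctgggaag
Rfx4, chr10:84837898-84838197 (+ strand): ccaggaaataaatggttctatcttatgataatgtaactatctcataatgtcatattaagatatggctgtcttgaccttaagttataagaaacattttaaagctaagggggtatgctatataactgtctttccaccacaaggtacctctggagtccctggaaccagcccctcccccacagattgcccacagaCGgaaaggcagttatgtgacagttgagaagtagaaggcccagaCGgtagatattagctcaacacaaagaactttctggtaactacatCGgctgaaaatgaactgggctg
4930401C15Rik, chr10:25837388-25837687 (- strand): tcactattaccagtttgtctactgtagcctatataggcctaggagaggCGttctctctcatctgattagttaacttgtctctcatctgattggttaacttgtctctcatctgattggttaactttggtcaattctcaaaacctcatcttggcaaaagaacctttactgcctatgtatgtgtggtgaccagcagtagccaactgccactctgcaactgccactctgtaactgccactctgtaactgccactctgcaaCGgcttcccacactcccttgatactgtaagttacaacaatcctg
Mgll, chr6:88724454-88724753 (+ strand): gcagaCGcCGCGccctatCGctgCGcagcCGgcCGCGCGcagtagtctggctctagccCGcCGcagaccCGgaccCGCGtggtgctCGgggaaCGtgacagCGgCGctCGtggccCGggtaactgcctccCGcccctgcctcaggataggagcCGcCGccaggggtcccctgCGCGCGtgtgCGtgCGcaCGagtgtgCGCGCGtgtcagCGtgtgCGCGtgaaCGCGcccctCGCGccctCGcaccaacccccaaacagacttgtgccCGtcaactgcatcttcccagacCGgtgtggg
Then came genes with large falls (Fam174b, Tgfa) or rises (Neurl1a, Gm9999) of RNA from PS to RS.
Fam174b, chr7:73740057-73740356 (+ strand): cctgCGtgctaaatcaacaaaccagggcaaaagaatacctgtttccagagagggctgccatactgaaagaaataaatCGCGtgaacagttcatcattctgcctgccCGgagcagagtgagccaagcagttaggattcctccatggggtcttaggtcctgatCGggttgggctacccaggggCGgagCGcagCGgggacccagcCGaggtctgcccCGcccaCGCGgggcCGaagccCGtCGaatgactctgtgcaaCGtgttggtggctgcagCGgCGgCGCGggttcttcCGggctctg
Tgfa, chr6:86194972-86195271 (+ strand): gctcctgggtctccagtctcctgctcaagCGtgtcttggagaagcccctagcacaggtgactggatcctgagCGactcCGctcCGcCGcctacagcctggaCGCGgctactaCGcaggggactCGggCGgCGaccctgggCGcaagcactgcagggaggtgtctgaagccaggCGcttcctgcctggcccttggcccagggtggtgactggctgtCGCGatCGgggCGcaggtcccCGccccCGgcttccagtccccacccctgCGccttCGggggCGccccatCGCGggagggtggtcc
Neurl1a, chr19:47178570-47178869 (+ strand): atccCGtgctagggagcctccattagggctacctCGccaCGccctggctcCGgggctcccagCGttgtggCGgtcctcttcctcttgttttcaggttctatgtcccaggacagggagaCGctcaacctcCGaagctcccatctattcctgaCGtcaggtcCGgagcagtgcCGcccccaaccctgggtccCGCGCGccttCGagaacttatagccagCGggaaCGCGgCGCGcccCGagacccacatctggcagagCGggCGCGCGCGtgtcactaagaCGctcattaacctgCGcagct
Gm9999, chr7:46976382-46976681 (+ strand): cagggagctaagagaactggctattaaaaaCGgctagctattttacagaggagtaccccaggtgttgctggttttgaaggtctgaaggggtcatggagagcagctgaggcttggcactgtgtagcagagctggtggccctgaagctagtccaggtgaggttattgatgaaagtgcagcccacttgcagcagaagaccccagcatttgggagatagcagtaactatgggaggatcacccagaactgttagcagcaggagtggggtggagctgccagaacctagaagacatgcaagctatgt
CG dinucleotides numbered 42 at Mgll, 28 at Neurl1a, 24 at Tgfa and 21 at Fam174b, against 8 at Lef1, 3 at Rfx4, 2 at 4930401C15Rik and 1 at Gm9999. The strongest lost regions and the 2 rises shown thus held promoters with many and with few CG dinucleotides. The falls shown, Fam174b, Tgfa and also Mgll, had 21 or more, and Lef1, whose RNA fell too, had 8. The Lef1 window is that of the RefSeq start site at 131112791. The start site that labels the Lef1 region is another one, at 131110297, and its window is not shown.

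Lost promoter regions were weak and narrow in PS. Their fold enrichment had a median of 5.35 in PS replicate 1 and 5.48 in PS replicate 2, against 16.5 and 17.5 at kept promoters, and the highest values were 35.8 and 42.8. Their median width was 644 bp, against 1843 bp at kept promoters. The annotated start site lay inside the region at 840 of the 1586 lost regions (53.0%) and at 89.6% of kept ones. The median distance from the strongest summit to that start site was 314.5 bp at lost and 297 bp at kept promoters, and the summit lay downstream of the start at 66.1% and 71.4%.

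The share lost was highest where the mark was weakest in PS. With the PS promoter regions split into 4 groups of near-equal size by their geometric mean fold enrichment, 1284 of the 2912 weakest regions were lost (44.1%), then 253 of 2885 (8.77%), 34 of 2902 (1.17%), and 15 of the 2891 strongest (0.519%). The weakest group ran from 3.29, the lowest enrichment listed, to 7.72, and the strongest began at 23.1. Beside the 13.7% of promoter regions, 39.2% of upstream, 35.5% of exonic, 43.9% of intronic and 47.0% of intergenic PS regions had no RS region. By chromosome, the share of promoter regions lost lay between 11.6% on chromosome 1 and 17.9% on chromosome 18.

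**Figure D1:**
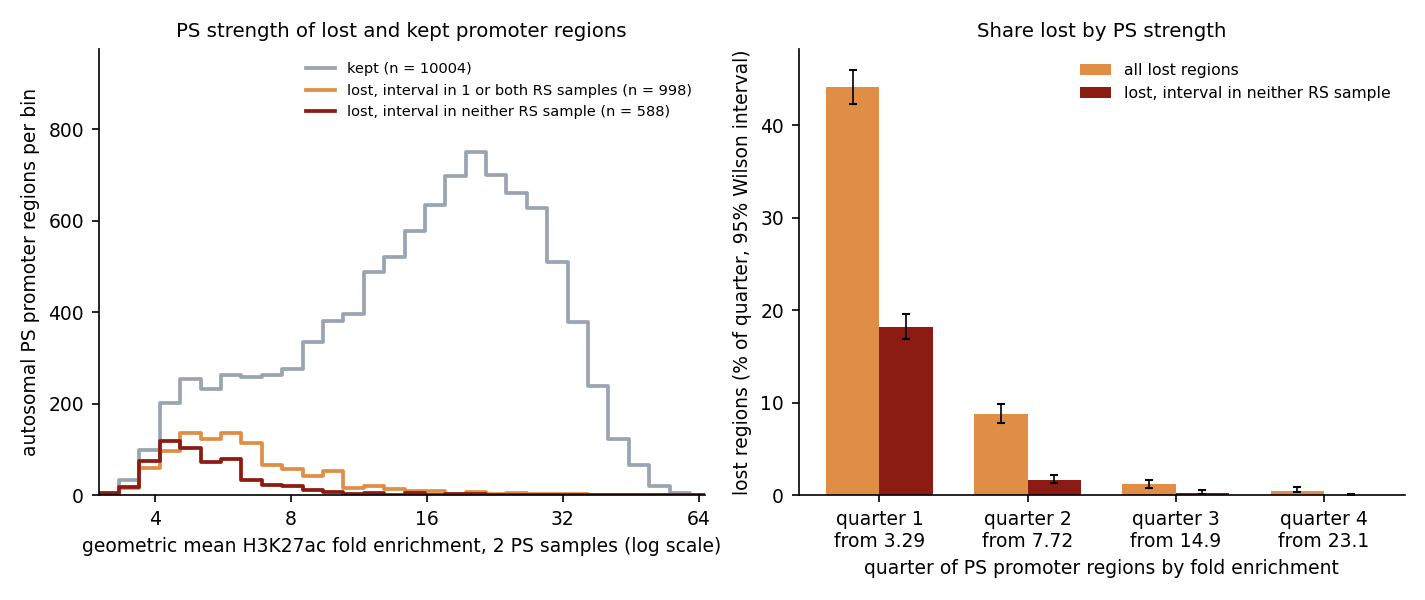
Left, number of autosomal PS promoter regions per bin of PS fold enrichment (geometric mean of 2 samples, log scale), for the 10004 kept regions, 998 lost regions with an interval in 1 or both RS samples and 588 with none. Right, percentage of each strength group that was lost, with 95% Wilson intervals. The share lost went from 44.1% in the weakest group to 0.519% in the strongest.

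Absence from the reproducible RS set covered unlike cases. At 588 lost regions (37.1%) neither RS sample listed an interval, at 938 (59.1%) RS replicate 1 alone did, at 26 RS replicate 2 alone did, and at 34 both did at positions that did not join into 1 region. RS replicate 1 had the lowest listed enrichment and the most peaks, and the part of this in the count was not tested. Without RS replicate 2, that is with RS replicate 1 deciding, 615 regions were lost, and without RS replicate 1 there were 1605. Without PS replicate 1 there were 3114 and without PS replicate 2 there were 2603, since 1 PS list then sufficed for a PS region. Where RS replicate 1 had an interval at a lost region (972 regions), its fold enrichment had a median of 4.48. The ratio to PS replicate 1 had a median of 0.760 there and was below 1 at 788 regions. At kept promoters the median ratio was 0.893, and it was below 1 at 6102 of 10003 regions. Regions with no interval in either RS sample were the weakest in PS, with medians of 4.94 and 5.48, and the narrowest, at 512.5 bp.

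Most lost regions stood far from any reproducible RS region. The median distance to the nearest one was 23009.5 bp, 1100 of the 1586 were over 10000 bp away, and 182 were within 1000 bp. These distances leave out intervals of a single RS sample, and 998 of the 1586 overlapped an interval of 1 or both RS samples. At the border of the rule, the lost regions nearest to an RS region were those of Plcb3 (0 bp between them), Smim4 (5 bp) and Dmrt1 (11 bp), and the kept promoter regions with the least overlap were those of Chrnb2 (4 bp shared), Tcf7l1 (9 bp) and Prkrip1 (13 bp). Fold enrichment in PS was 3.70 and 6.58 at Plcb3, 4.12 and 5.48 at Smim4, 6.58 and 7.13 at Chrnb2 and 3.29 and 3.84 at Tcf7l1. PS values on the lost and the kept side of the border overlapped.

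A smaller set stood further above the listing minimum in PS. In 326 lost regions (20.6%) both PS samples reached 6.97, which is 2 times the lowest enrichment listed in RS replicate 2, and 60 of these had no interval in either RS sample. That limit lies within the weakest strength group, which ended at 7.72. It is also below the lower quartile of kept promoters, 9.88 and 10.4 in PS replicates 1 and 2. The strongest lost region lay at Lef1, a transcription factor of Wnt signalling, on chr3:131110231-131113337. Fold enrichment there was 35.8 and 42.8 in PS, 4.88 in RS replicate 1, and RS replicate 2 had no interval. Rfx4, a member of the RFX transcription factor family, stood at 31.7 and 38.4 in PS (chr10:84837198-84839320) and 6.92 in RS replicate 1, and an RS region lay 336 bp away. Sult2a2, a sulfotransferase gene, stood at 31.3 and 37.8 (chr7:13731180-13732830) with no interval in either RS sample and 452197 bp to the nearest RS region, although its RNA had 0 reads in all 4 libraries and its summit lay 2135 bp upstream of the annotated start.

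Mgll, which encodes monoacylglycerol lipase, stood at 35.4 and 30.1 in PS (chr6:88723742-88725784) and 6.51 in RS replicate 1. The noncoding 4930401C15Rik region had 28.8 and 39.5 in PS and 3.25 in RS replicate 1 (chr10:25835856-25838747). Dpf1, a neuronal subunit gene of BAF chromatin remodelling complexes, had 30.0 and 32.9 in PS (chr7:29302867-29304657) and 4.48 and 4.06 in RS. Catsperb, an auxiliary subunit of the sperm calcium channel CatSper, had 26.8 and 35.6 in PS (chr12:101403629-101405377) and 4.88 in RS replicate 1. Otud7a, a deubiquitinase gene, had 27.2 and 31.8 in PS (chr7:63443144-63445695) and 4.07 in RS replicate 1. In each of these 5 regions both PS values were above 26 and every listed RS value was below 7.

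The widest lost region, of 4058 bp, lay at Gse1, a gene whose product is found in a corepressor complex (chr8:120534956-120539013, 25.1 and 28.0 in PS, 4.88 in RS replicate 1). Next came 3534 bp at Egr4, a zinc finger transcription factor of germ cells (chr6:85511070-85514603), with 27.6 and 29.6 in PS and 4.88 and 4.06 in RS. A region of 3231 bp lay in the microRNA cluster holding Mir154, Mir377 and Mir496 (chr12:109737631-109740861), with 22.2 and 28.5 in PS and 4.88 in RS replicate 1. The precursors of these microRNAs had at most 1 read in any RNA library and could not be tested.

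**Figure D2:**
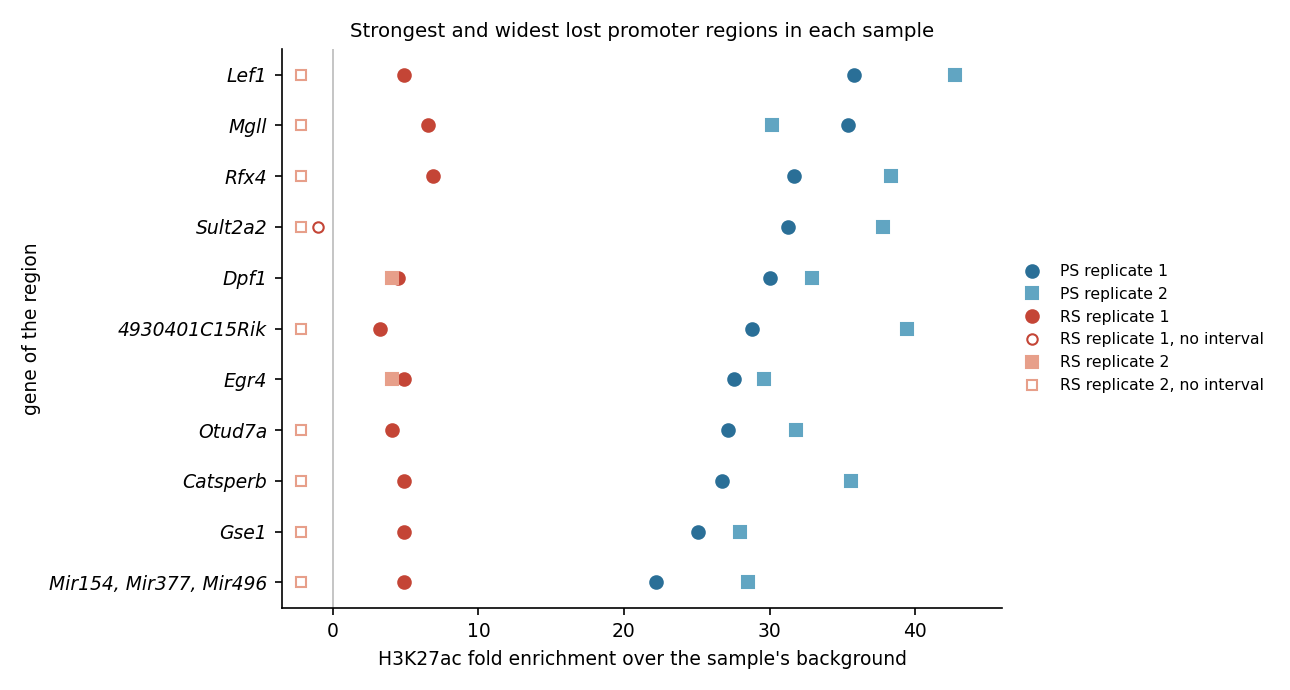
H3K27ac fold enrichment (horizontal axis) in each of the 4 samples at the 11 regions that are the 8 strongest or 4 widest lost promoter regions. Open marks left of 0 stand for a sample with no listed interval. PS values lay between 22.2 and 42.8, listed RS values between 3.25 and 6.92.

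Few genes of the meiotic programme had a lost promoter region. Of 12008 genes with an autosomal PS promoter region, 1483 (12.4%) had a lost one, and 198 of these also had a kept one. None of the 43 marked genes of meiotic prophase, 22 of the piRNA pathway, 18 pachytene markers, 17 round spermatid markers or 79 ribosomal protein genes had a lost promoter region. Among 49 marked cell division genes 2 did, the Aurora kinase genes Aurkb and Aurkc. Aurkb had 17.3 and 15.9 in PS against 5.70 and 4.06 in RS, and Aurkc had 7.82 and 6.58 in PS against 4.48 in RS replicate 1. Other counts were 2 of 38 for DNA replication (Tyms and Mcm10), 2 of 45 for the DNA damage response (Xrcc5, and Fance, which also had a kept region), 1 of 81 for chromatin enzymes (Tet3) and 2 of 52 for spermatid differentiation (Rfx4 and Gsg1).

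Regulators of development and Sertoli cell markers were among the lists with the larger shares, which are descriptions without a test. The shares were not matched for PS strength, and 44.1% of the regions in the weakest strength group were lost. Homeobox and other developmental transcription factors, taken by symbol, had a lost region at 28 of 74 marked genes (37.8%), and signalling genes of the Wnt, Fgf, Bmp, TGF-beta and Notch families at 15 of 46 (32.6%). Solute carriers had one at 44 of 182 (24.2%), immediate early and MAP kinase genes at 5 of 75 (6.67%), C2H2 zinc finger genes at 44 of 345 (12.8%) and unnamed or noncoding gene models at 208 of 1494 (13.9%). The developmental factors included Nkx6-1 (14.8 and 21.4 in PS), Pitx3 (13.6 and 13.2), Irx2 (8.23 and 11.5), Hoxa4 (7.82 and 8.77), En2 (8.23 and 7.67), Tbx1, Sox17, Sox9 and Gata4, with medians over the 28 of 6.79 and 7.40. Both medians were below 7.72, where the weakest strength group ended. At 18 of the 28 neither RS sample listed an interval at a lost region, against 558 of all 1483 member genes (37.6%).

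Sertoli cells are the somatic cells that nurse germ cells in the tubule. Of 11 Sertoli marker genes with a PS promoter region, 9 had a lost one, and in the lost regions of all 9 neither RS sample had an interval. Amh had a kept promoter region as well, and its lost one lay 1230 bp from an RS region. They were Sox9, Gata4, Wt1 and Nr5a1, which encode transcription factors, Amh (anti-Mullerian hormone), Inhbb (an inhibin and activin subunit), Cldn11 (a tight junction claudin), Clu (clusterin) and Aard. Fold enrichment over the 9 was 3.29 to 5.35 in PS replicate 1 and 4.38 to 9.87 in PS replicate 2, and Clu had the widest gap, with 5.35 and 9.87. Vim and Inha were kept, with 8.23 and 7.67 at Vim and 7.41 and 10.4 at Inha in PS and 4.48 to 6.51 in RS. If an interval in either RS sample ends membership, the count is therefore 9 by construction, which is no separate check. That alternative was chosen after the data were seen. None of the 19 Leydig and peritubular markers had a promoter region in PS, and of the blood and endothelium markers Cdh5 alone had one, which was lost (4.53 and 3.29).

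In the dKO RNA, which comes from other cell preparations, no library had more than 2.81 RPKM of any of these 9 Sertoli genes apart from Clu, Nr5a1 in PS and Aard in RS. RPKM of Sox9 was 0.169 and 0.0869 in PS and 0.121 and 0.0614 in RS, and that of Gata4 was 1.45 and 0.663 in PS and 1.16 and 0.876 in RS. Clu stood at 57.9 and 27.04 in PS and 28.1 and 14.5 in RS, so that PS replicate 2 stood below RS replicate 1. Among the 7 that could be tested, 4 were not called. Nr5a1 fell, from 4.53 and 2.54 RPKM in PS to 0.994 and 0.835 in RS, and Wt1 (0.539 and 0.291 to 1.20 and 0.796) and Aard (2.41 and 1.20 to 8.38 and 5.86) rose. No defining Sertoli marker was at 0 in all libraries, and their summed RPKM of 67.7 to 132 in PS overlapped that of 74.5 to 107 in RS. The part of Sertoli cells in the PS chromatin was not tested.

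Spermatogonial genes had a lost region at 4 of 14 marked genes, Egr4, Kit, Utf1 and Dmrt1, of which Dmrt1 also had a kept one. Kit, the receptor of stem cell factor, had 6.996 and 4.93 in PS and 4.88 in RS replicate 1, and Utf1, a chromatin factor of undifferentiated cells, had 6.58 and 3.84 in PS and no RS interval. At 10 other marked genes of the list, Ddx4 and Dazl among them, the promoter region was kept, with 32.9 and 36.7 at Ddx4 in PS and 25.6 and 22.6 in RS. RNA of Kit was 4.83 and 2.70 RPKM in PS and 4.12 and 3.35 in RS, so both stages overlapped.

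**Figure D3:**
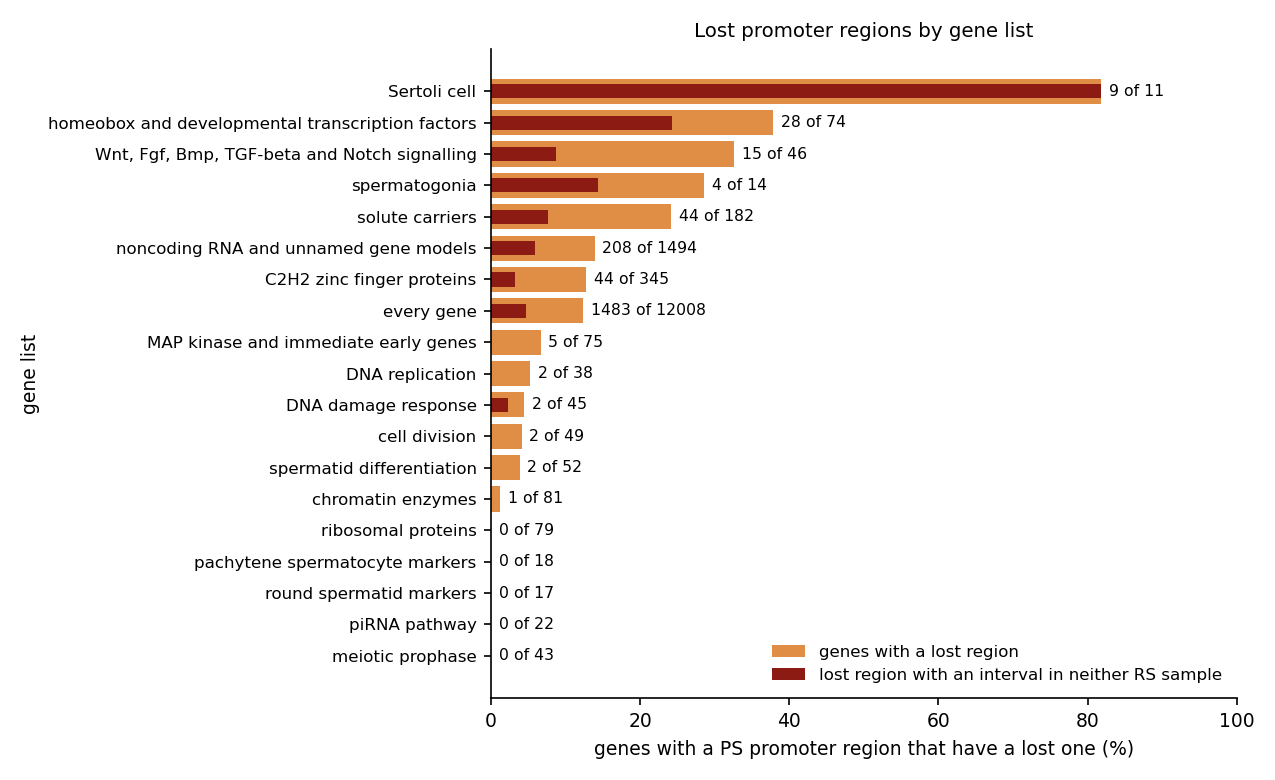
Percentage of the genes with an autosomal PS promoter region that had a lost one, for lists with at least 10 such genes, with counts at each bar. The dark inner bar gives genes with a lost region at which neither RS sample had an interval. Sertoli markers stood at 9 of 11 and meiotic prophase genes at 0 of 43.

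How RNA of the member genes changed between stages was asked in the dKO samples, with edgeR's quasi-likelihood test on counts of all genes and a call at a Benjamini-Hochberg adjusted p under 0.05 and a change over 1.5-fold. Over all 14647 genes tested, 27.6% were lower in RS than PS and 30.4% were higher, with a median log2 change of 0.01. Of the 1483 member genes, which mapped to 1480 autosomal gene rows, 1163 had enough reads. Of these, 257 fell (22.1%), 295 rose (25.4%) and 611 were not called, with a median log2 change of 0.14. With all RNA samples in the fit, both shares were below the background of all genes. This did not hold for both shares in every fit that left out an RNA sample, and such fits are described by their median change only. In such bulk samples, fewer cells of a type and less RNA per cell cannot be told apart. Marker sums of other cell types moved with stage, being higher in PS for Leydig and peritubular cells (581 to 808 against 89.1 to 134 RPKM, 8 of 19 genes lower and 7 higher in RS) and higher in RS for blood and endothelium (66.9 to 74.3 against 8.63 to 9.67 RPKM), and their part in the calls was not tested. Genes with a kept promoter region only (10081 tested) fell at 33.1% and rose at 23.5%, with a median of -0.21. Without dKO PS replicate 1 the median log2 change of member genes was 0.32, against 0.04 over all genes. Without dKO RS replicate 1 or RS replicate 2 it was 0.09 and 0.17, against -0.01 over all genes in both fits. With a minimum -log10 q of 5 in every peak list, the members changed and 438 of 1475 tested genes were lower (29.7%), above the background.

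Much of the member set was little expressed. Among genes with lost regions only, 40.6% reached a mean of 1 RPKM in PS. The share was 87.3% with kept regions only and 49.3% over all autosomal genes, and 44.3% over all member genes. The median RPKM of genes with lost regions only was 0.705 and 0.552 in PS and 0.769 and 0.740 in RS. It was 10.19 and 10.0 in PS and 8.32 and 8.62 in RS for genes with kept regions only. Over all autosomal genes it was 0.946 and 0.878 in PS and 1.21 and 1.24 in RS. No library had a read at 17.2% of all autosomal genes, against 53 of the 1282 genes with lost regions only (4.13%). By level in PS, the calls were spread unevenly. Of those between 5 and 20 RPKM in PS, 61 of 123 fell (49.6%) and 17 rose, against 39.9% and 22.7% of the 3158 genes with kept regions only at that level. Below 1 RPKM in PS, 19 of 464 tested genes fell (4.09%) and 167 rose (35.99%), against 33 (3.56%) and 451 (48.6%) of 928 with kept regions only. The shares over all genes at any level were 27.6% and 30.4%. A level in PS is part of the change itself, so these shares describe the genes and were not tested against each other.

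RNA calls were also counted by the PS strength of the lost promoter. In the weakest of the 4 strength groups, 132 of 761 tested genes with lost regions only fell (17.3%) and 217 rose (28.5%). In the next group 72 of 214 fell (33.6%) and 38 rose (17.8%), then 10 of 27 fell and 2 rose, and in the strongest group 6 of 12 fell and 0 rose, with 6 not called. Genes with kept regions only went from 14.5% lower and 54.5% higher in the weakest group to 37.6% lower and 14.9% higher in the strongest. The weakest group thus held 701 rises among 1286 genes with kept regions and 217 among 761 with lost ones, a difference that was not tested. For the 326 regions at or above 6.97 in both PS samples, 88 of 265 tested genes fell (33.2%) and 49 rose (18.5%), with a median log2 change of -0.25.

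**Figure D4:**
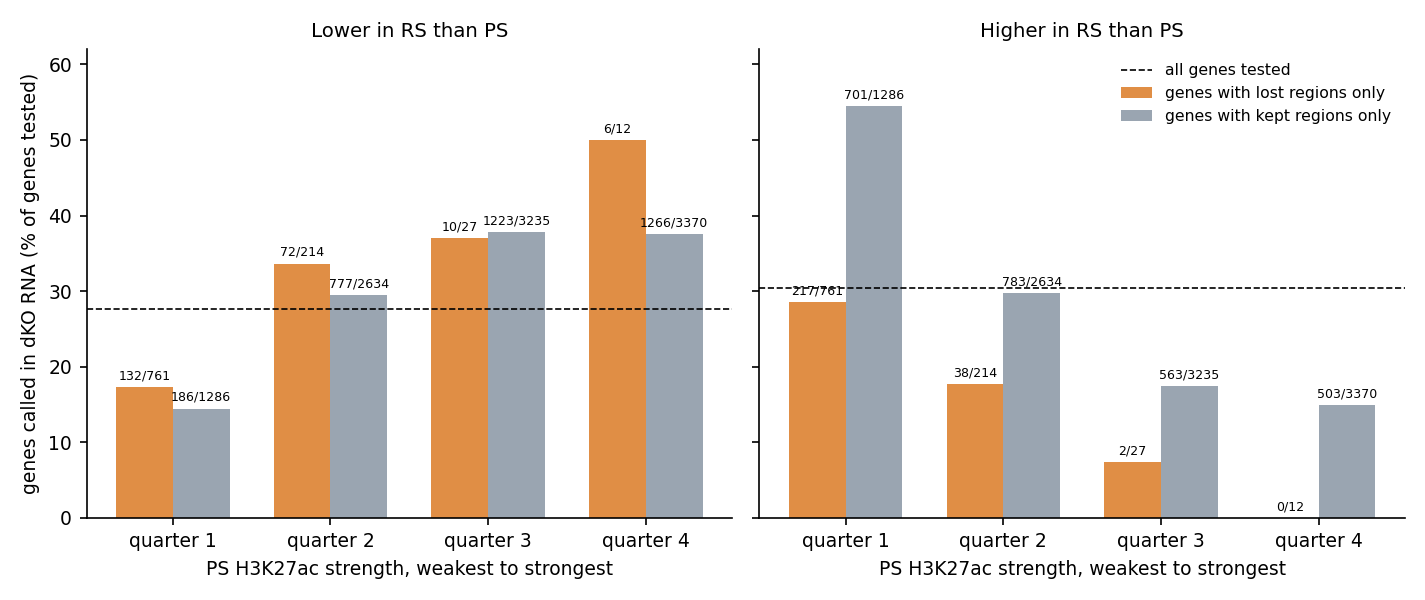
Percentage of tested genes called lower (left) or higher (right) in dKO RS than dKO PS, for 4 groups of PS promoter strength, in genes with lost regions only or kept regions only. Counts stand over the bars and the dashed line is the share of all genes tested, 27.6% and 30.4%. In the weakest group 54.5% of genes with kept regions and 28.5% of those with lost regions were higher.

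Among the strongest members, RNA fell at Lef1, Mgll and Otud7a and at the wide regions of Gse1 and Egr4. RPKM of Lef1 was 48.4 and 53.5 in PS and 7.59 and 9.91 in RS (log2 change -2.49, SE 0.17, adjusted p 7.25e-06, edgeR). Egr4 went from 11.2 and 12.9 to 3.47 and 3.27 (-1.79, SE 0.20, adjusted p 8.97e-05), Gse1 from 5.25 and 4.79 to 1.66 and 1.81 (-1.50, SE 0.17), and Otud7a from 3.37 and 4.16 to 1.55 and 1.79 (-1.14, SE 0.23). In these genes the stages did not overlap. Rfx4, Catsperb and Dpf1, also among the strongest, were not called. Rfx4 had 27.7 and 30.6 RPKM in PS and 21.5 and 17.6 in RS (-0.35, SE 0.16), Catsperb 34.6 and 29.1 in PS and 20.2 and 24.3 in RS (-0.48, SE 0.15, under the 1.5-fold limit), and Dpf1 4.81 and 3.95 in PS and 3.51 and 3.35 in RS (-0.31, SE 0.22). The noncoding 4930401C15Rik, not called either, had 0.304 and 1.46 RPKM in PS and 1.24 and 0.981 in RS (0.38, SE 0.65), from 3 to 15 reads per library, and was called higher without dKO PS replicate 2 (1.93, adjusted p 0.0306, edgeR). Both of its RS values lay between its PS values.

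The largest falls among genes with lost regions only and at least 50 mean reads were those of Gm21269, Fam174b, Speer1-ps1, Mgll, Tgfa and Ptgds. Gm21269, an unnamed gene model, went from 88.3 and 99.3 RPKM in PS to 1.67 and 2.68 in RS (log2 change -5.41, SE 0.25, adjusted p 3.29e-06, edgeR), with 4.94 and 4.38 in H3K27ac at chr7:73824854-73825350. Fam174b, whose lost region lay on the same chromosome at chr7:73739898-73741115, went from 17.2 and 14.3 to 0.667 and 0.888 (-4.30, SE 0.23), and Speer1-ps1, a spermatogenesis-associated pseudogene, from 35.1 and 42.0 to 1.81 and 2.07 (-4.27, SE 0.23). Only unique alignments were counted, so reads that match near-identical copies equally well are missing and the pseudogene's value is uncertain. Mgll went from 94.1 and 88.6 to 4.25 and 6.24 (-4.19, SE 0.21). Tgfa, a ligand of the EGF receptor, went from 11.8 and 10.9 to 0.659 and 0.803 (-3.92, SE 0.20), and its H3K27ac region of 10.3 and 15.3 in PS had no interval in either RS sample. Ptgds, prostaglandin D2 synthase, went from 199 and 134 to 12.9 and 14.8 (-3.55, SE 0.21). In each of these 6 genes both PS values lay above both RS values.

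Some lost promoters belonged to genes with rising RNA. Plekho2 went from 0.582 and 0.825 RPKM in PS to 8.81 and 12.9 in RS (log2 change 3.98, SE 0.27, adjusted p 7.61e-06, edgeR), and Neurl1a, an E3 ubiquitin ligase gene, from 0.337 and 0.563 to 5.02 and 5.78 (3.72, SE 0.30). Gm9999 went from 23.1 and 23.3 to 288 and 220 (3.49, SE 0.18), Synj2, an inositol phosphatase gene, from 1.36 and 1.90 to 17.9 and 19.02 (3.46, SE 0.20), Cldn3, a claudin gene, from 2.32 and 2.95 to 27.2 and 28.2 (3.45, SE 0.22), and Osgin1 from 9.08 and 13.7 to 111 and 113 (3.33, SE 0.21). Their lost regions were weak, with 3.70 to 6.58 in PS replicate 1 and 4.38 to 9.87 in PS replicate 2, and that of Neurl1a lay 326 bp from an RS region. Gsg1, a germ cell gene whose RNA went from 73.1 and 103 to 1084 and 1098 RPKM, also had a kept promoter region and its lost one lay 102 bp from an RS region.

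**Figure D5:**
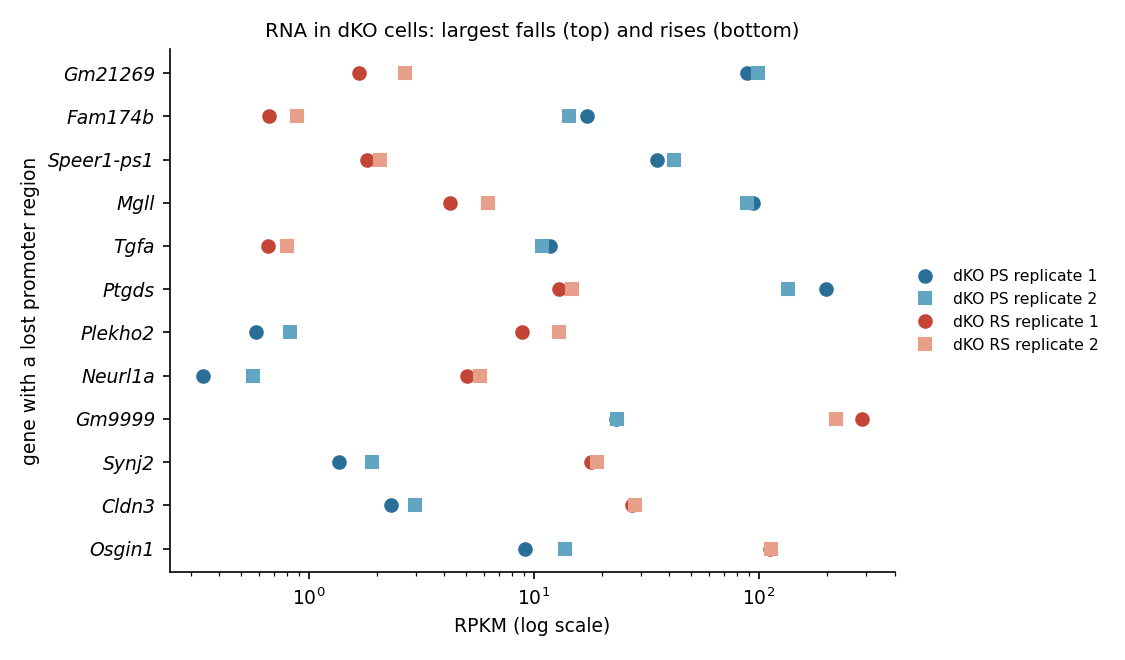
RPKM (log scale) in the 4 dKO RNA samples for the 6 genes with the largest fall and the 6 with the largest rise among genes with lost promoter regions only and at least 50 mean reads. Circles and squares are replicates 1 and 2. In each gene the PS and RS values did not overlap.

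Within the gene lists, member genes moved in both directions. Aurkb (log2 change -1.47, SE 0.19, adjusted p 0.000192, edgeR), Aurkc (-1.42), the repair gene Xrcc5 (-1.34) and the replication gene Mcm10 (-0.81) fell, and Tyms, thymidylate synthase (1.70), and Tet3, a dioxygenase of methylcytosine (0.82), rose. The call at Mcm10 was lost without dKO RS replicate 1 (adjusted p 0.0592) or RS replicate 2 (0.155), that at Tyms without RS replicate 1 (0.0556), and that at Tet3 without RS replicate 1 or 2 (0.0784 and 0.0818) and with DESeq2 (0.0712). Of the 28 developmental transcription factor genes 19 were tested, 5 fell and 5 rose, and the median was 0.21, against 16 falls and 50 rises among the 108 tested in the whole list, with a median of 0.72. Irx2 went from 3.95 and 5.34 RPKM in PS to 1.25 and 0.965 in RS, En2 from 3.275 and 3.79 to 0.647 and 0.288, and Hoxa4 from 51.7 and 52.3 to 31.4 and 31.0. Gata6, by contrast, went from 0.467 and 0.451 to 1.95 and 2.26. Among the signalling genes 4 of 13 tested fell, Wnt5b, Fgf8, Fgfr3 and Fgfrl1, and Jag1 rose, from 1.05 and 0.770 to 5.62 and 4.28 RPKM, against 12 falls and 29 rises among the 71 tested in the whole list. Jag1 and Fgfrl1 also had a kept promoter region, and their strongest lost regions lay 101 and 176 bp from an RS region. Of 35 tested zinc finger genes with a lost region 12 fell and 4 rose, against 147 and 66 of the 363 tested in the whole list. Of 36 solute carriers 5 fell and 5 rose, against 61 and 67 of 237. Over all genes the shares were 27.6% lower and 30.4% higher, and no test was made of these counts.

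Base composition at the start sites was read from the genome, in windows from 250 bases before to 50 bases after 1422 start sites of lost and 9479 of kept promoter regions. The windows were not limited to marked sequence, and the annotated start site lay inside 53.0% of lost and 89.6% of kept regions. Lost promoters had a median of 17 CG dinucleotides, kept ones 22 and all 24751 annotated autosomal start sites 13. An ETS-type site (CCGGAAG, on either strand) stood in 7.24% of lost, 20.1% of kept and 11.3% of all windows. The NRF1 core TGCGCA, which can overlap CG-rich runs, stood in 8.65%, 15.6% and 9.21%, the GC box GGGCGG in 63.2%, 65.1% and 45.6%, the CCAAT box in 35.4%, 38.7% and 37.4%, and the TATA box TATAAA in 7.67%, 6.17% and 12.7%. For windows of the weakest strength group the ETS-type letters were in 7.02% of lost and 9.42% of kept promoters, and in the next group in 8.00% and 20.2%. These counts describe letters, not bound factors.

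How often promoters were lost by their number of CG dinucleotides depended on their strength in PS. With fewer than 5 in the window, 120 of 971 PS promoter regions were lost (12.4%), with 5 to 14 there were 533 of 2364 (22.5%), and with 15 or more 933 of 8255 (11.3%). In the weakest strength group the shares were 15.8%, 48.1% and 52.2%, and in the next group 8.17%, 12.9% and 7.37%. In both stronger groups promoters with the fewest CG dinucleotides were lost most often, at 8.14% (7 of 86), 2.73% and 0.631% in the third group and at 6.33% (5 of 79), 0.602% and 0.323% in the strongest. RNA calls of CpG-poor genes were counted in the same way. Of 681 tested genes with kept regions only and fewer than 5 CG dinucleotides, 472 rose (69.3%) with a median log2 change of 2.65, and of 71 such genes with lost regions only, 12 rose (16.9%) and 16 fell with a median of -0.17. With 15 or more, 19.04% of kept-only and 29.0% of lost-only genes rose. No test was made between these sets of genes, which differ in strength and level.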

How the data were processed

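Peak lists of H3K27ac ChIP-seq in wild-type cells and gene tables of RNA-seq in dKO cells were analysed, with 2 samples for each stage, grouped by sample title. Per the submitters' processing notes reads were mapped to mm10, with Bowtie 1.1.1, MACS2 2.1.0.20140616 and STAR 2.4.2a among the tools named, and the study's methods give other versions for the peak calling. The authors called peaks per sample without pooling and deposited, for each summit, the pileup signal, a fold enrichment (ratio of pileup to 1 constant background per sample), and -log10 p and q values, with the class and gene of the interval. Enrichment was not scaled between samples. The authors also deposited read counts and RPKM per RefSeq isoform, split by expectation maximization from unique alignments. No sample columns from outside the series were present.

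Here counts were summed over isoforms to 23343 gene rows. Intervals of each list were joined and compared as the report states (Python 3, pandas). A gene was tested where 2 or more libraries had 10 or more counts, with edgeR 4.0.16 (TMM, quasi-likelihood F-test, Benjamini-Hochberg over all genes), in R 4.3.3. Both the region and the RNA steps were tested on simulated data. Depth limits the weak peaks most, since a fold enrichment near the listing minimum rests on few fragments, and intervals cover counting error only. The members and gene lists were chosen with earlier results of these data known. Named genes were the genes of the 8 strongest and 4 widest regions, the 6 largest falls and 6 largest rises among genes with lost regions only, a call and at least 50 mean reads, list genes with a lost region (the 4 strongest per list), and the 3 regions on each side of the rule's border. Other members of lists were named after their values were seen. Printed promoters were the first 4 of the strongest and 4 of the RNA genes with a RefSeq window at least 150 bases inside the region, the last condition being set after a first look. Alternatives covered peak thresholds, overlap, class, replicates, DESeq2 1.42.0, scaling, filter and block.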

Additional observations from a re-analysis of the deposited data

How the results depend on the processing

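The number of lost regions depended most on the peak lists. It was 588 (5.07% of PS promoter regions) when an interval in either RS sample ended membership, with 79 member genes lower and 120 higher in RS. Leaving out 1 H3K27ac sample gave 615 (without RS replicate 2) to 3114 regions (without PS replicate 1), 5.31 to 21.2%, 81 to 450 genes lower and 126 to 464 higher. The other settings kept the number of regions within 1.5 times. The share was 17.1% with a -log10 q of at least 5, where 438 genes were lower, 16.4% where an RS region had to cover 50% of the PS region, 14.7% where every interval had to be of class promoter, and 15.1% with equal numbers of peaks. Numbers of tested member genes varied over these peak settings, from 415 to 1887. Of the tested member genes 18.75% to 29.7% were lower and 20.6% to 29.2% higher. The shares over all genes were 27.6% lower and 30.4% higher. With the replicate number as a block, 267 member genes were lower and 322 higher. The numbers mark no stated pairing, and the replicate differences of PS and RS correlated at 0.22 over genes (14647 genes). DESeq2 gave 205 and 217, other scaling 256 and 300, no filter 269 and 316, and genes with lost regions only 208 and 252. Shares over all genes differed between these fits. DESeq2 called 17.6% of tested member genes lower and 18.7% higher, against 24.8% and 26.04% of all genes. With no filter the shares were 18.9% and 22.2%, against 21.9% and 25.03%. With the block they were 22.96% and 27.7%, against 28.2% and 31.3%. Leaving out 1 RNA sample assumes that the lone sample varies like the others. The median log2 change of member genes was then 0.09 to 0.32, against -0.01 to 0.04 over all genes. Cldn11, not called with all samples, ranged from -0.62 to 1.24 when 1 RNA sample was left out and rose without PS replicate 1 (adjusted p 0.0392). Of 320 fits of 40 named genes, 13 lost a call and 6 gained one, besides that of Cldn11. Developmental factor genes with a lost region numbered 18 where either RS sample ended membership, by construction the same 18 as above. The causes were not tested.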
